A study of Mus musculus with 27 samples.

Results

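The tissue inhibitors of metalloproteinases (TIMPs) were followed in cardiac fibroblasts and whole hearts of mice through their genes Timp1, Timp2, Timp3 and Timp4. The genes were found by symbol, and all 4 were among the 22855 genes counted in both tissues, so that no member was missing. The RNA-Seq data covered 12 samples of sorted cardiac fibroblasts and 15 of intact hearts, all from C57BL/6 mice, at 5 ages, namely day 1 after birth (postnatal day 1), 4 and 14 weeks, and 1 and 1.5 years. The fibroblasts had 3 replicates at each of the 2 youngest ages and 2 at each older age, and the hearts 3 throughout. No animal was described as treated or mutant. Fibroblasts were sorted as PDGFRα-expressing cells after the ventricles, freed of atria and valves, had been digested with enzymes, whereas RNA of whole hearts was extracted from tissue. The comparisons ask how the level of each inhibitor differed between ages and whether it differed in the same way in fibroblasts and in the heart.

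TIMPs are small secreted proteins that bind the active site of matrix metalloproteinases (MMPs), the enzymes that cut collagens and other proteins of the extracellular matrix, and so limit their activity. Members differ in what else they do. TIMP2 also joins MMP14 at the cell surface in the step that activates pro-MMP2, TIMP3 stays bound to the matrix and also inhibits ADAM17 and aggrecanases of the ADAMTS family, TIMP1 is soluble and is induced in injured and inflamed tissue, and TIMP4 is known for its high level in the heart. In the heart the balance between MMPs and TIMPs is a standard measure of how far matrix can be broken down.

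The 4 genes lie on different chromosomes of the GRCm38 (mm10) build, given here with GENCODE M21 positions. Timp1 is at chrX:20870166-20874735 on the plus strand, Timp2 at chr11:118301069-118355740 on the minus strand, Timp3 at chr10:86300372-86349506 on the plus strand, and Timp4 at chr6:115241892-115252205 on the minus strand. Timp1, Timp3 and Timp4 each lie inside a synapsin gene of the opposite strand (Syn1, Syn3 and Syn2). Timp1 shares no exon base with Syn1, Timp3 shares 1733 of its 8144 exon bases (21.3%) with Syn3, and Timp4 shares 90 of 5894 (1.53%) with Syn2. Whether counting used the strand was not stated, so how reads from the shared stretches were counted is not known. Timp2 contains Cep295nl, a gene of its own strand, with no exon base in common.

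The promoters are shown because Timp2 and Timp3 both rose early in cardiac fibroblasts whereas Timp4 was low and uneven there. Each RefSeq window (GRCm38.p6) is 300 bases long and runs from 250 bases before the annotated start of transcription to 50 after it, 5′ to 3′ on the strand of the gene, with capitals marking a match to the SP1 motif GGGCGG on either strand.
Timp1 (chrX:20869916-20870215, plus): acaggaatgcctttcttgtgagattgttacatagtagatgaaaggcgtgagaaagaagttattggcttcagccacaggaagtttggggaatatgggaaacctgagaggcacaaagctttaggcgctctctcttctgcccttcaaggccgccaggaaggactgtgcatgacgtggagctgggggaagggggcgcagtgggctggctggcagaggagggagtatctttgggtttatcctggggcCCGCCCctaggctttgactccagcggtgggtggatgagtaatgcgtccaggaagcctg
Timp2 (chr11:118355362-118355661, minus): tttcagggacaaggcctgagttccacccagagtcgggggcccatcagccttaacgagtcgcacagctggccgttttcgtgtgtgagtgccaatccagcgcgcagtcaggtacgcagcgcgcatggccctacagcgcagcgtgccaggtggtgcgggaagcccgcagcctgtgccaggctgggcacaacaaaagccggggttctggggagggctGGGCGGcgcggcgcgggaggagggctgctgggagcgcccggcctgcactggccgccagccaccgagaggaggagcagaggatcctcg
Timp3 (chr10:86300162-86300461, plus): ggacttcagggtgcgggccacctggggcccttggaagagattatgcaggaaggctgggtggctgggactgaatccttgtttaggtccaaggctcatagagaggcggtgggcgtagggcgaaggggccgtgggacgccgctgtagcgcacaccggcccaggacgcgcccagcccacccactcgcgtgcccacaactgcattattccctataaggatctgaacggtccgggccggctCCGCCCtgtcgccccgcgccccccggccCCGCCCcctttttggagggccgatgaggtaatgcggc
Timp4 (chr6:115252156-115252455, minus): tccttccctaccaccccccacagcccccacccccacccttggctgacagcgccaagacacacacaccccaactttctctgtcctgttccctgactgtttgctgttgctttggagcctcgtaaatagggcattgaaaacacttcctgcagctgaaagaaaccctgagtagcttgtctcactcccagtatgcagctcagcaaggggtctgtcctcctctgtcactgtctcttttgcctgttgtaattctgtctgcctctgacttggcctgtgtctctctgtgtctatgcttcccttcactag
The windows of Timp2 and Timp3 were richer in G and C (68.7% and 67.0%) than those of Timp1 (55.0%) and Timp4 (53.3%). They held 25 and 24 CpG dinucleotides, against 8 in Timp1 and 2 in Timp4. The SP1 motif was matched once in Timp1 and Timp2, 2 times in Timp3 and not in Timp4, and 35.7% of 32851 promoter windows of this length held a match. No window held the AP-1 motif TGANTCA (present in 7.81% of all windows), the TATA box TATAAA (13.6%) or the CRE motif TGACGTCA (1.79%). A match, or its absence, only describes these letters. The Timp2 window (118355362 to 118355661) lies wholly inside the gene as placed by GENCODE M21, whose start on the minus strand is at 118355740. For Timp2 the window thus does not hold the bases before that start.

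Each sample had between 46091271 and 76758831 counts, and the counts of a Timp gene in a sample ranged from 31 (Timp1 in a heart of 14 weeks) to 190693 (Timp2 in fibroblasts of 1 year). Levels are on the counts-per-million scale (CPM), set by the TMM method within each tissue, so that fold changes between tissues are taken only from a fit of all samples together. The 7 fibroblast markers checked, Pdgfra among them, summed to between 16779 and 27778 CPM in sorted cells and to between 639.9 and 1115 CPM in whole hearts. Markers of other cells were not at 0 in the sorted samples, where 9 endothelial markers summed to between 321 and 1866 CPM and 7 cardiomyocyte markers to between 14.8 and 735 CPM. A list of 15 immediate early and stress genes summed in fibroblasts to 15198 to 21408 CPM in newborns, and then, by age, to 35845 to 40559, 34699 to 37935, 47426 to 50207 and 51442 to 53889 CPM, against 371 to 914 CPM in whole hearts. Xist was at most 0.570 CPM in every sample of 14 weeks and 1 year, and the Y-linked gene Ddx3y was at most 0.397 CPM in every sample of 1.5 years. The labels give no sex, and the sex of the animals and their age cannot be told apart at those ages. The labels do not say which samples came from separate animals, so p values measure the spread between the samples as deposited.

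**Figure D1:**
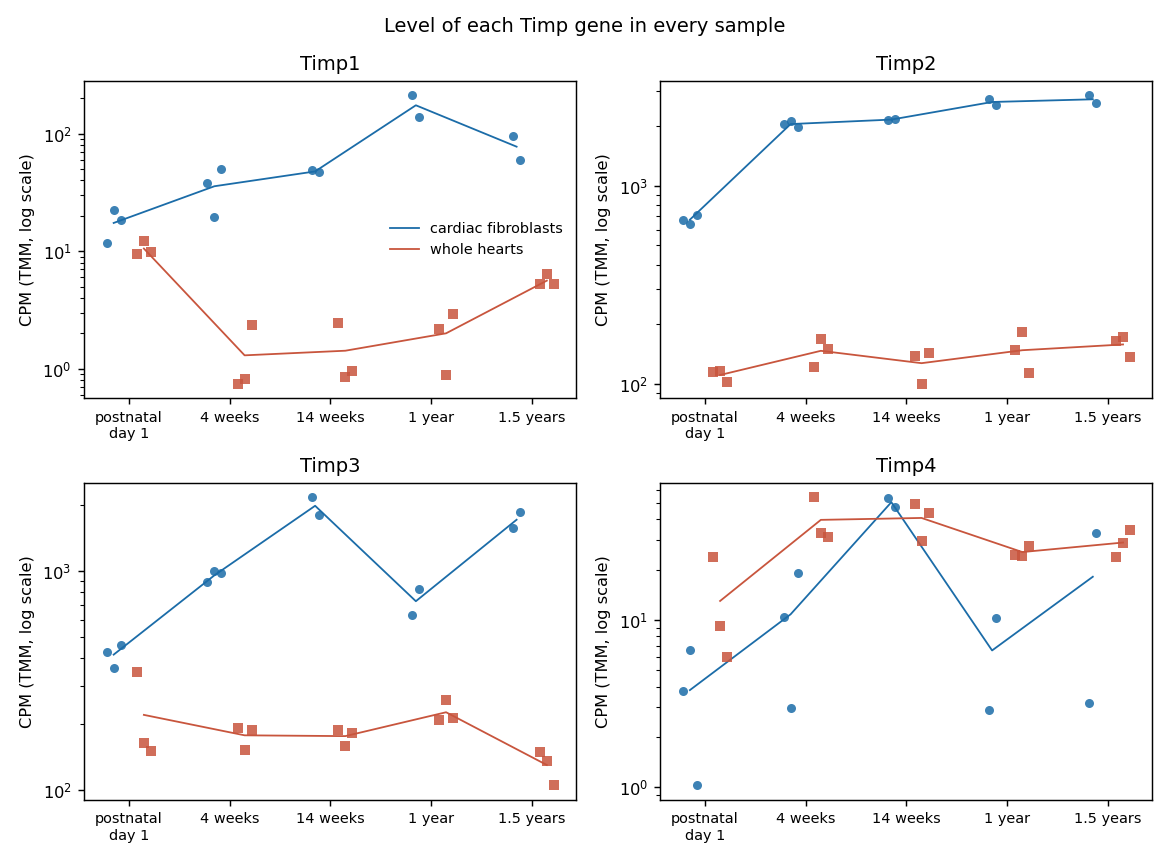
Level of each Timp gene in CPM (TMM scaling within each tissue, log scale) at the 5 ages. Circles are the 12 fibroblast samples, squares the 15 whole heart samples, and lines join the means. Timp2 in fibroblasts stepped up between postnatal day 1 and 4 weeks, Timp3 dipped and Timp1 peaked in both fibroblast samples of 1 year, and Timp4 spread widely within ages.

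Timp2 rose 3.03-fold in cardiac fibroblasts between postnatal day 1 and 4 weeks and stayed high. Its level was 671, 639.5 and 709 CPM in the samples of postnatal day 1 and 2032, 2108 and 1974 CPM at 4 weeks. The 14-week samples had 2130.4 and 2162 CPM, those of 1 year 2731 and 2533 CPM, and the oldest 2839 and 2591 CPM. No sample of an older age came near those of postnatal day 1, and the samples of any one age differed little. The early rise was 1.60 ± 0.11 on the log2 scale (± SE, adjusted p = 6.6e-07, edgeR's quasi-likelihood test), and that to 1.5 years was 2.01 ± 0.11 (adjusted p = 1.5e-07). Later steps were small and did not pass the test, at 0.07 ± 0.12 from 4 to 14 weeks (adjusted p = 0.876), 0.29 ± 0.13 from 14 weeks to 1 year (adjusted p = 0.358) and 0.34 ± 0.13 from 14 weeks to 1.5 years (adjusted p = 0.229), although the samples of 1 and 1.5 years lay above those of 14 weeks. The means of Timp2 thus followed the order of age, and the samples of the 2 oldest ages overlapped. The immediate early and stress genes rose over the same ages, 14 of 15 of them between postnatal day 1 and 4 weeks, while 4 of 7 cardiomyocyte markers fell in that interval (summed 678 to 735 CPM, then 63.3 to 181) and 4 of 7 macrophage markers rose (103 to 209.5 CPM, then 287 to 471). Among smooth muscle and pericyte markers 4 of 7 fell and 1 rose (233 to 360 CPM, then 99.9 to 183). Among fibroblast markers 5 of 7 rose and 1 fell. Their part in the early rises of Timp2 and Timp3 was not tested.

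Timp3 also rose early in fibroblasts, and unlike Timp2 it kept moving after 4 weeks. It measured 427, 359.5 and 460.4 CPM at postnatal day 1, and 892, 1002 and 977 CPM at 4 weeks. The 14-week samples had 2178 and 1799.5 CPM, those of 1 year 628 and 830.0 CPM, and those of 1.5 years 1575 and 1859 CPM. Both samples of 1 year lay above every sample of postnatal day 1 and below those of all other ages. The difference between 1 and 1.5 years was not tested, and sex and age cannot be told apart between these ages. The rise to 4 weeks was 1.20 ± 0.15 on the log2 scale (adjusted p = 1.1e-04) and the further rise to 14 weeks 1.06 ± 0.16 (adjusted p = 0.0037). From 14 weeks to 1 year Timp3 fell by 1.45 ± 0.18 (adjusted p = 0.0025), or 2.73-fold. At 1.5 years it was 2.05 ± 0.16 above postnatal day 1 (adjusted p = 2.2e-06), while its difference from 14 weeks was -0.21 ± 0.18 (adjusted p = 0.642) with overlapping samples. Without the 14-week sample of replicate 4 the step from 4 to 14 weeks was 0.91 (adjusted p = 0.0638). Over that step 5 of 7 macrophage markers fell, to a sum of 39.5 to 54.6 CPM, and the sum of 7 smooth muscle and pericyte markers went from 99.9 to 183 CPM to 399 to 506 CPM, with 1 of 7 called higher. Between 14 weeks and 1 year the sums of endothelial (1247 to 1531 CPM, then 511 to 688), smooth muscle and pericyte (399 to 506 CPM, then 298 to 320.0) and cardiomyocyte markers (88.7 to 120.2 CPM, then 14.8 to 40.8) all went down without overlap, although none of these markers was called. The macrophage sum also went down (to between 23.9 and 27.2 CPM), with none called. Sums of fibroblast markers (19035 to 20275 CPM, then 21990 to 24736) and of immediate early and stress genes (34699 to 37935 CPM, then 47426 to 50207) went up. Of the latter 4 of 15 were called higher. Their part in the changes of Timp3 was not tested.

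Timp1 was far lower in fibroblasts than Timp2, and its mean rose with age up to 1 year, where it was highest. The samples of postnatal day 1 had 11.7, 22.3 and 18.3 CPM, those of 4 weeks 38.0, 19.5 and 49.7 CPM, and those of 14 weeks 48.7 and 46.8 CPM. At 1 year the level was 211 and 137 CPM, and at 1.5 years 95.7 and 59.3 CPM. Both samples of 1 year were above all others, those of 1.5 years were next, those of 14 weeks fell within the range of 4 weeks, and 1 of the 4-week samples fell within the range of postnatal day 1. The difference between 1 and 1.5 years was not tested. By 1.5 years Timp1 had risen above postnatal day 1 by 2.16 ± 0.36 on the log2 scale (adjusted p = 0.0011). From 14 weeks to 1 year it rose by 1.87 ± 0.41 (adjusted p = 0.0397), a call that was lost without any 1 of the samples of these ages (values from 1.52 to 2.14, adjusted p from 0.0606 to 0.34), without replicate 3 of postnatal day 1 (adjusted p = 0.0561) or replicate 1 of 4 weeks (adjusted p = 0.0625), and with scaling by library size alone (1.68, adjusted p = 0.0551). The difference between postnatal day 1 and 4 weeks was 1.04 ± 0.33 (adjusted p = 0.0516), that between 4 and 14 weeks 0.42 ± 0.36 (adjusted p = 0.66) and that between 14 weeks and 1.5 years 0.70 ± 0.40 (adjusted p = 0.481). Timp1 is X-linked, and every sample of 14 weeks and 1 year was near 0 for Xist, the RNA of the inactive X chromosome, so that this property did not separate the samples of these 2 ages. Fibroblasts of 1.5 years had 424 and 429 CPM of Xist and at most 0.0813 CPM of Ddx3y. Those of postnatal day 1 and 4 weeks held both (Xist 137 to 590 CPM, Ddx3y 24.8 to 50.8 CPM). From 4 to 14 weeks, and in the comparisons with 1.5 years, age and that split cannot be told apart for Timp1. Between 14 weeks and 1 year 4 of the 15 immediate early and stress genes rose and none fell, and their part in the change of Timp1 was not tested.

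Timp4 was low in fibroblasts and passed no test between ages in the edgeR fit of all ages, although 3 of the 5 comparisons had an unadjusted p under 0.05. DESeq2 called 2 of these 3, that between 14 weeks and 1 year (-2.95) and that between postnatal day 1 and 1.5 years (2.23). The first was also called by edgeR with only these ages fitted (-2.94, adjusted p = 0.0135). With the replicate number as a block the value was -4.58. Replicate 6 occurred only at 14 weeks, so for that age the block fit rests on replicate 4 alone. Timp4 had 3.79, 6.62 and 1.03 CPM at postnatal day 1, 10.4, 2.97 and 19.1 CPM at 4 weeks and 53.9 and 47.2 CPM at 14 weeks. It had 2.91 and 10.2 CPM at 1 year, and 3.20 and 33.1 CPM at 1.5 years. Only the samples of 14 weeks stood clear of all others, and the 2 samples of 1.5 years lay far apart. The difference between 1.5 years and postnatal day 1 was 2.25 ± 0.94 on the log2 scale (adjusted p = 0.136), and without replicate 5 of 1.5 years it turned to -0.25 (adjusted p = 1), whereas without replicate 4 it was 3.12 (adjusted p = 0.036). The samples with the most Timp4 also stood out in markers of other cells. The 9 endothelial markers summed to 1531 and 1247 CPM at 14 weeks, to 1313 CPM in replicate 5 of 1.5 years and to 1866 CPM in replicate 3 of 4 weeks, the samples with 53.9, 47.2, 33.1 and 19.1 CPM of Timp4. In the other 8 samples the markers summed to between 321 and 688 CPM and Timp4 was at most 10.4 CPM. Among the samples older than postnatal day 1 the same 4 also had the highest sums of cardiomyocyte markers (120.2, 88.7, 129 and 181 CPM against 14.8 to 77.1 CPM) and the highest shares of mitochondrial counts (3.84%, 2.98%, 7.83% and 3.73% against 1.74% to 2.20%). The samples of postnatal day 1, with little Timp4, had more of both (678 to 735 CPM and 6.15% to 9.18%). The part of other cells in the level of Timp4 was not tested.

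**Figure D2:**
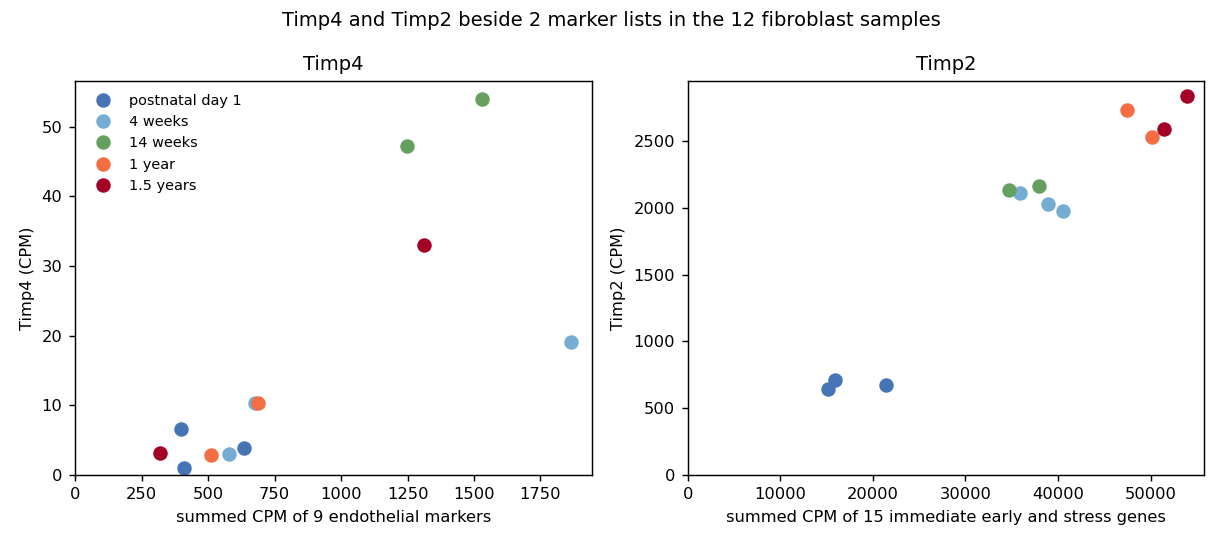
Timp4 beside the summed CPM of 9 endothelial markers and Timp2 beside that of 15 immediate early and stress genes, 1 point per fibroblast sample, colored by age (all axes linear). The 4 samples with 1247 CPM or more of endothelial markers had the 4 highest levels of Timp4, and the samples of postnatal day 1 were lowest in both Timp2 and the stress genes.

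Of the 4 members in fibroblasts, 3 differed among the 5 ages (Timp1, adjusted p = 2.4e-04; Timp2, 8.2e-07; Timp3, 4.4e-06), and Timp4 did not pass (adjusted p = 0.0671). Timp4 passed with DESeq2 (adjusted p = 0.0016), and in edgeR without a filter (adjusted p = 0.0277) or with a minimum of 10 counts (adjusted p = 0.0309). Over all 18759 genes tested, 19.9% passed that test. Between postnatal day 1 and 4 weeks 2 of 4 rose, beside 15.5% of all genes called, and between postnatal day 1 and 1.5 years 3 of 4 rose, beside 16.3%. Between 4 and 14 weeks 1 member was called (all genes, 3.87%), and between 14 weeks and 1 year 2 were called in opposite directions (all genes, 1.78%). Between 14 weeks and 1.5 years none was called in this fit (all genes, 2.72%), where Timp2 had an unadjusted p under 0.05 and DESeq2 called it. With a replicate block, which leaves only replicate 4 of 14 weeks for this comparison, Timp1 was at 0.95 and Timp4 at -3.63. A count over 4 genes is a description beside these shares.

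In whole hearts the members moved otherwise, and Timp1 gave the largest change. It was 9.49, 12.2 and 9.89 CPM at postnatal day 1, and 0.749, 0.815 and 2.35 CPM at 4 weeks. It stayed at 2.46, 0.855 and 0.968 CPM in the 14-week hearts and 2.18, 0.886 and 2.95 CPM in those of 1 year, and the oldest hearts had 5.22, 6.40 and 5.25 CPM. All samples of postnatal day 1 were above all others, those of 1.5 years came next without overlap, and the 3 ages between overlapped. Timp1 fell by 3.01 ± 0.62 on the log2 scale between postnatal day 1 and 4 weeks (adjusted p = 0.0023), or 8.07-fold, while 7 of 7 macrophage and 5 of 7 cardiomyocyte markers rose. From 14 weeks to 1.5 years it rose by 1.97 ± 0.60 (adjusted p = 0.0384). The second call was lost without replicate 2 (1.71) or 3 (1.76) of 14 weeks, without replicate 2 (1.87) or 3 (2.02) of 1.5 years, without any 1 sample of postnatal day 1 (2.02 each) or without replicate 1 of 1 year (1.97), with adjusted p from 0.0519 to 0.153, and without replicate 1 of 14 weeks the value was 2.62. In these hearts every sample of 14 weeks was near 0 for Xist and every sample of 1.5 years for Ddx3y, so for this X-linked gene age and that split cannot be told apart. Macrophage markers summed to between 270.4 and 297 CPM at 14 weeks and to between 439 and 583 CPM at 1.5 years, with 2 of 7 higher. Fibroblast markers in these hearts went from between 639.9 and 758 CPM to between 953 and 1115 CPM, with 3 of 7 higher and 0 lower. The part of these cells at either step was not tested. In bulk tissue, fewer cells of a type and less RNA per cell cannot be told apart.

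Timp4 rose in whole hearts after birth. The samples had 23.7, 9.22 and 6.02 CPM at postnatal day 1 and 54.2, 33.3 and 31.5 CPM at 4 weeks. The 14-week hearts had 49.0, 29.8 and 43.3 CPM, those of 1 year 24.4, 24.2 and 27.8 CPM, and the oldest 23.7, 28.8 and 34.5 CPM. Every sample of 4 and 14 weeks was above all of postnatal day 1, and the samples of 1 and 1.5 years overlapped with each other and came down to about the highest of postnatal day 1. The rise to 4 weeks was 1.61 ± 0.38 on the log2 scale (adjusted p = 0.0066), and the difference between 1.5 years and postnatal day 1 was 1.16 ± 0.38 (adjusted p = 0.0275). The first call was lost when only these 2 ages were fitted (1.58, adjusted p = 0.0504). The second was lost without replicate 2 or 3 of either age (values from 0.87 to 1.17) and fell to 0.56 (adjusted p = 0.242) with scaling by library size alone. Over the same early step the 9 endothelial markers went from between 565 and 820 CPM to between 1030 and 1187 CPM, with 4 of 9 higher, 5 of 7 cardiomyocyte markers rose and so did 7 of 7 macrophage markers, and their part was not tested.

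Neither Timp2 nor Timp3 passed the test over the 5 ages in whole hearts, and their calls between single ages were few. Timp2 was 115, 116 and 103 CPM in newborn hearts, 122, 169 and 151 CPM in those of 4 weeks and 138, 101 and 144 CPM in those of 14 weeks. The hearts of 1 year had 148, 183 and 114 CPM and the oldest 165, 173 and 137 CPM, and all samples of 4 weeks and 1.5 years lay above those of postnatal day 1. Its difference between 1.5 years and postnatal day 1 was 0.51 ± 0.19 on the log2 scale (adjusted p = 0.0473). With scaling by library size alone it was -0.08 (adjusted p = 0.786), while the median of all genes moved from -0.15 to -0.75, so that the sign of Timp2 depends on the scaling. That call was also lost without any 1 of the samples of postnatal day 1 (values from 0.50 to 0.59), without replicate 1 (0.48) or 2 (0.44) of 1.5 years, and without replicate 3 of 4 weeks, 1 or 3 of 14 weeks, or 1 of 1 year (0.51 each), with adjusted p from 0.0574 to 0.14. Timp3 was 346, 164 and 152 CPM in newborn hearts, 193, 153 and 188 CPM in those of 4 weeks and 188, 159 and 182 CPM in those of 14 weeks. The hearts of 1 year had 210.0, 257 and 213 CPM and the oldest 149, 136 and 105 CPM. The samples of 1 year lay above and those of 1.5 years below those of 14 weeks. Timp3 fell by 0.76 ± 0.25 between postnatal day 1 and 1.5 years (adjusted p = 0.0268), but without replicate 1 of postnatal day 1, whose 346 CPM stood apart, the difference was -0.22 (adjusted p = 0.362), and without replicate 2 or 3 of 1.5 years it was -0.79 (adjusted p = 0.0554) or -0.63 (adjusted p = 0.102). The early difference was -0.31 ± 0.25 (adjusted p = 0.436), and 0.18 without that sample of postnatal day 1.

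Among the 5 ages in whole hearts 2 of 4 members passed, Timp1 (adjusted p = 0.0013) and Timp4 (adjusted p = 0.0186), beside 34.3% of 17995 genes tested, whereas Timp2 (adjusted p = 0.184) and Timp3 (adjusted p = 0.0908) did not. The call of Timp4 was lost without replicate 2 (adjusted p = 0.0935) or 3 (adjusted p = 0.0559) of postnatal day 1 and with library size alone (adjusted p = 0.110). Timp3 passed without replicate 1 (adjusted p = 0.015) or 3 (adjusted p = 0.045) of postnatal day 1, with DESeq2 (adjusted p = 0.0384), with a minimum of 10 counts (adjusted p = 0.0487) and with library size alone (adjusted p = 0.0026). Between postnatal day 1 and 4 weeks 2 members were called in opposite directions (all genes, 18.2%), and between postnatal day 1 and 1.5 years 3 were called, 2 higher and 1 lower (all genes, 31.8%). Between 14 weeks and 1.5 years 1 member was called (all genes, 12.8%). In the edgeR fit of all ages none was called, or had an unadjusted p under 0.05, between 4 and 14 weeks (all genes, 1.61%) or between 14 weeks and 1 year (all genes, 0.972%), and DESeq2 called none. With only these 2 ages fitted, Timp4 was called between 14 weeks and 1 year (-0.66, adjusted p = 0.0466).

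**Figure D3:**
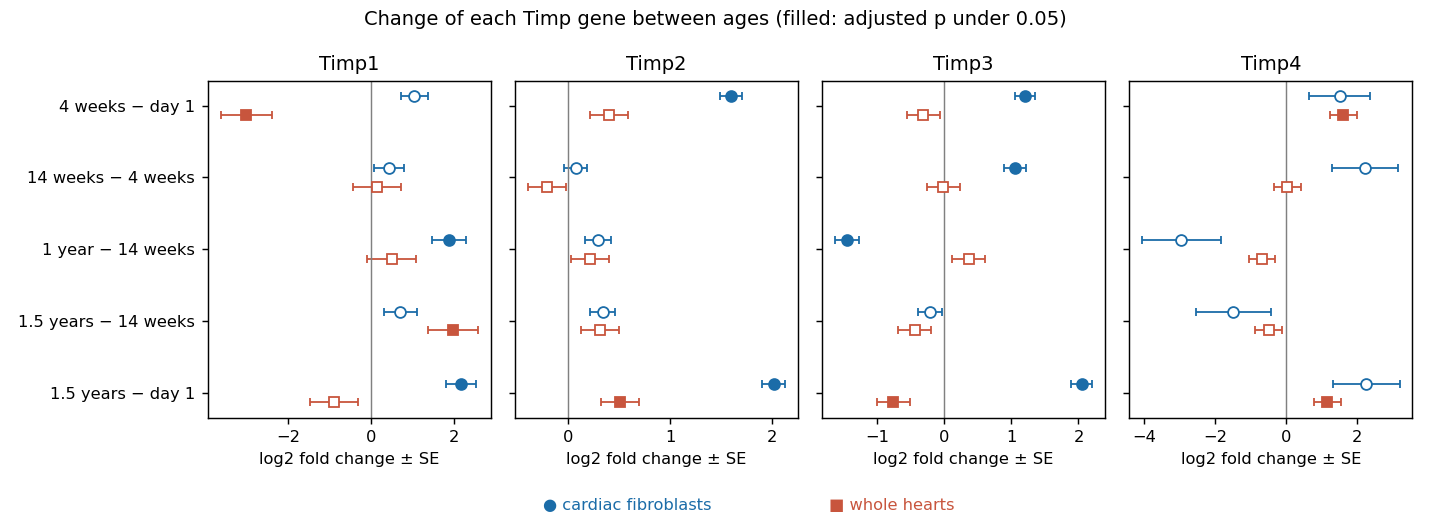
Change of each Timp gene between ages as log2 fold change ± SE from edgeR, circles for cardiac fibroblasts and squares for whole hearts. Filled marks passed an adjusted p of 0.05. In fibroblasts Timp2 and Timp3 rose by 1.60 and 1.20 between postnatal day 1 and 4 weeks, whereas in whole hearts Timp1 fell by 3.01 and Timp4 rose by 1.61.

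Timp2 was higher in fibroblasts than in whole hearts at every age. In the fit of all samples the difference (fibroblasts minus hearts, log2 scale) was 2.25 ± 0.18 in newborns, and by age 3.44 ± 0.18, 3.72 ± 0.20, 3.84 ± 0.20 and 3.73 ± 0.20 later, or from 4.76-fold to 14.4-fold (all adjusted p at most 4.3e-10). Timp1 was not distinguishable between the tissues at postnatal day 1 (0.38 ± 0.44, adjusted p = 0.573), and was higher in fibroblasts at every later age (4.41 ± 0.51, 4.69 ± 0.54, 6.14 ± 0.57 and 3.41 ± 0.51 by age), up to 70.6-fold at 1 year. Timp3 differed by 0.57 ± 0.23 at postnatal day 1 (adjusted p = 0.0599) and was higher in fibroblasts at the later ages by 2.08 ± 0.23, 3.14 ± 0.26, 1.38 ± 0.25 and 3.35 ± 0.26, with the smallest of these at 1 year. The value of Timp3 at postnatal day 1 was 1.06 (adjusted p = 7.6e-05) without heart replicate 1 of that age, and 0.74 with a passing p without any 1 of the hearts of the other ages. Timp4 was the exception. It was lower in fibroblasts by 2.12 ± 0.71 at postnatal day 1 (adjusted p = 0.0249), 2.24 ± 0.71 at 4 weeks (adjusted p = 0.0159) and 2.27 ± 0.84 at 1 year (adjusted p = 0.0401), and did not pass at 14 weeks (-0.04 ± 0.76) or 1.5 years (-1.06 ± 0.79). The first call was lost without fibroblast replicate 1 (-2.11) or 3 (-1.67) or heart replicate 1 (-1.34) of that age, and the second without fibroblast replicate 2 (-1.79) or heart replicate 1 (-1.88). The third was lost without fibroblast replicate 4 of 1 year (-1.63, adjusted p = 0.31) and without any 1 of the hearts older than postnatal day 1 (-2.15 to -2.22). At 1.5 years a call was gained without fibroblast replicate 5 (-3.53, adjusted p = 0.0113).

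Between the tissues 2 of 4 members were called at postnatal day 1, where 32.3% of all 20650 genes were. At 4 weeks 4 were called (all genes, 36.1%), in the 14-week samples 3 (34.8%), in those of 1 year 4 (32.4%) and in the oldest 3 (38.9%). The sorted cells had been digested and sorted and the hearts had not, and the immediate early and stress genes were higher in the sorted cells at every age. Whether the tissue or the handling goes with a difference cannot be told apart in this design.

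The change with age itself was compared between the tissues. Over the first 4 weeks the change in fibroblasts exceeded that in hearts for Timp1 by 4.04 ± 0.65 on the log2 scale (adjusted p = 3e-04), for Timp2 by 1.19 ± 0.24 (adjusted p = 0.0024) and for Timp3 by 1.51 ± 0.32 (adjusted p = 0.004), and for Timp4 the difference was -0.12 ± 0.97 (adjusted p = 1). The call of Timp3 was lost with the replicate number as a block (1.37, adjusted p = 0.0766). All genes gave 7.14% at this comparison. The study sorted its fibroblasts from the hearts it analyzed, so that samples of the 2 tissues may share animals, but the labels do not match them and this fit treats them as independent. Between postnatal day 1 and 1.5 years the difference was 3.04 ± 0.66 for Timp1 (adjusted p = 0.0034), 1.48 ± 0.25 for Timp2 (adjusted p = 3.6e-04), 2.78 ± 0.34 for Timp3 (adjusted p = 8.7e-06) and 1.05 ± 1.02 for Timp4 (adjusted p = 0.582), beside 13.6% of all genes. From 14 weeks to 1.5 years none of the 4 was called by edgeR or DESeq2, and none had an unadjusted edgeR p under 0.05 (all genes, 2.71%), with values from -1.28 ± 0.71 for Timp1 to 0.21 ± 0.36 for Timp3. Over both intervals 14 of 15 immediate early and stress genes rose in fibroblasts, whereas in hearts 2 rose over the first and 6 over the second, and their part was not tested.

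Per kilobase of exon, which allows genes to be compared, Timp2 was the most abundant member in fibroblasts at every age, from 173 ± 8.93 CPM per kilobase at postnatal day 1 to 697 ± 45.1 at 1.5 years (mean ± SD, n = 3 and 2). Timp3 came next at 51.0 ± 6.31 and 211 ± 24.6, then Timp1 at 19.6 ± 6.04 and 87.3 ± 29.0, and Timp4 was last at 0.647 ± 0.474 and 3.08 ± 3.58. At 1 year Timp1 (155 and 238 CPM per kilobase) stood above Timp3 (77.1 and 102), which reversed their order. That order depends on the length used, which for Timp3 was 8144 bases of exons, against 4722 in its longest transcript. Without division by length Timp3 held 20.6% and Timp1 4.91% of the family's counts in fibroblasts of 1 year. In whole hearts of postnatal day 1 Timp2 (26.4 to 29.8 CPM per kilobase) and Timp3 (18.6 to 42.5) overlapped, and Timp1 (10.7 to 13.8) was above Timp4 (1.02 to 4.03). From 4 weeks to 1 year Timp4 took the place of Timp1, with 6.73 ± 2.14 against 1.47 ± 1.02 CPM per kilobase at 4 weeks (mean ± SD, n = 3). At 1.5 years Timp1 (5.88 to 7.21) was again above Timp4 (4.02 to 5.86).

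As a share of the family total per kilobase, Timp2 took a median of 70.5% in fibroblasts (62.3% to 78.8%, 12 samples) and 54.0% in whole hearts (34.1% to 63.1%, 15 samples). Averaged over ages its share was 18.1 percentage points higher in fibroblasts, with only a slight overlap of the samples (exact permutation test of the tissue labels within ages, two-sided p = 2.5e-06, the smallest that 400000 arrangements allow, adjusted p = 5e-06 over 4 genes). Timp3 took a median of 18.8% in fibroblasts and 33.0% in hearts, a difference of -13.9 points (exact permutation p = 7.5e-06, adjusted p = 1e-05). Timp4 took 0.265% and 7.43%, with no overlap between 0.0485% to 1.04% in fibroblasts and 1.79% to 14.1% in hearts (-7.06 points, exact permutation p = 2.5e-06, adjusted p = 5e-06). The share of Timp1, a median of 7.43% and 3.97%, was not distinguished (2.84 points, exact permutation p = 0.195). Since the 4 shares sum to the whole, they are not independent of each other.

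Shares were also set side by side between ages, with too few samples for a test to pass. In fibroblasts Timp1 held 20.2% ± 4.52 at 1 year against 6.27% ± 0.0417 at 14 weeks (mean ± SD, n = 2 each), and Timp3 held 9.4% ± 2.57 against 28.4% ± 2.86. In hearts Timp1 held 17.6% ± 4.68 at postnatal day 1, 2.14% ± 1.43 at 4 weeks and 9.35% ± 0.893 at 1.5 years, and Timp2 went from 41.9% ± 6.83 at postnatal day 1 to 59.8% ± 0.973 at 1.5 years (n = 3 each). With 3 samples against 3 an exact permutation test cannot go below p = 0.1, and with 2 against 2 not below 0.333, so that no share could pass between 2 ages.

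**Figure D4:**
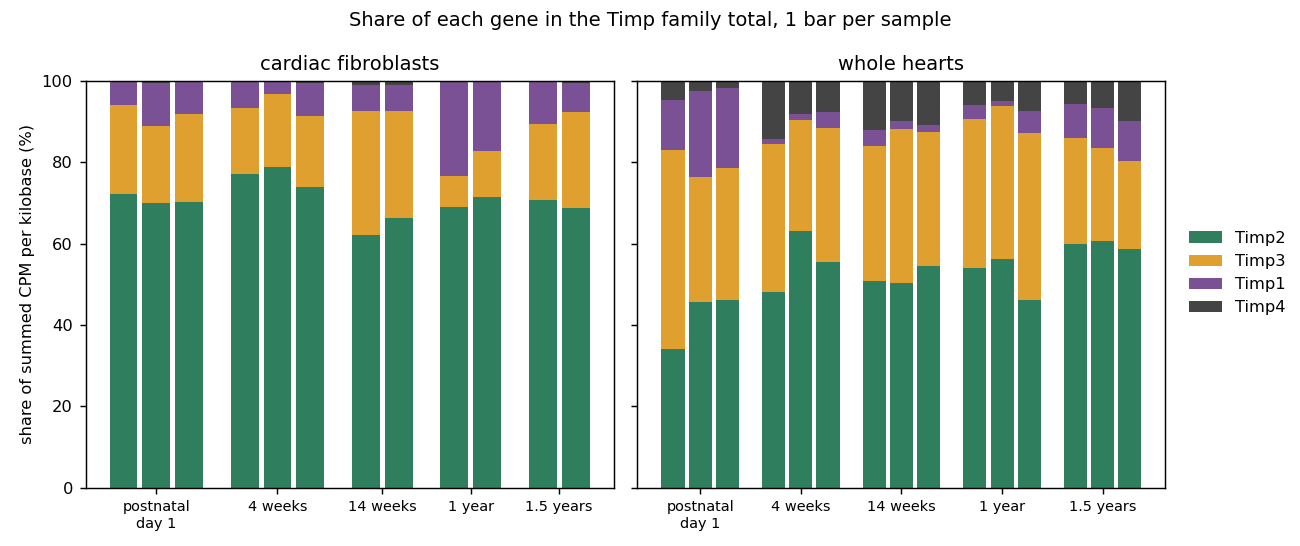
Share of each gene in the summed CPM per kilobase of the 4 Timp genes, 1 bar per sample, fibroblasts on the left and whole hearts on the right, grouped by age. Timp2 was the largest share in every fibroblast sample, and Timp4, scarcely visible in fibroblasts, took 1.79% to 14.1% in whole hearts.

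The 4 members together went in fibroblasts from 244 ± 13.3 CPM per kilobase (mean ± SD) at postnatal day 1 to 683 ± 6.17 at 4 weeks, and then, by age, to 857 ± 29.3, 962 ± 76.3 and 998 ± 45.8, of which Timp2 made up the most at each age. The summed level of 19 Mmp genes went 908 ± 117, 993 ± 129, 727 ± 22.3, 1330.4 ± 259 and 833 ± 109 over the same ages. Mmp2 alone made up most of that sum at each age, with means of 608, 789, 540, 935 and 523 CPM per kilobase. The ratio of the 2 sums in a sample was between 0.238 and 0.302 at postnatal day 1 and between 0.635 and 0.811 at 4 weeks. It was 1.18 in both 14-week samples, 0.671 and 0.792 in those of 1 year and 1.13 and 1.28 in the oldest. Samples of postnatal day 1 were thus lowest, and those of 1 year went back to the range of 4 weeks. In whole hearts the sum of the 4 members stayed between 51.4 and 86.7 CPM per kilobase in all 15 samples, and its ratio to the Mmp sum was between 0.509 and 1.43. These sums describe RNA, carry no test, and say nothing of protein or activity.

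**Figure D5:**
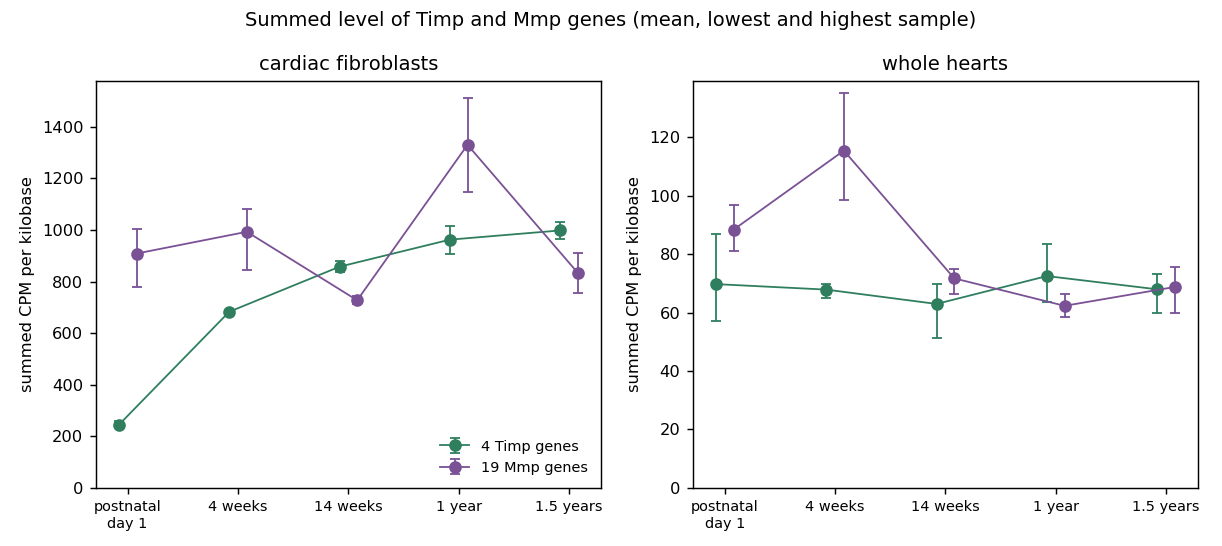
Summed CPM per kilobase of the 4 Timp genes and of 19 Mmp genes by age, in cardiac fibroblasts (left) and whole hearts (right, with its own scale). Points are means over the samples of an age, and bars span the lowest and highest sample. In fibroblasts the mean Timp sum went from 244 to 998, and the mean Mmp sum was highest, at 1330.4, at 1 year.

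The enzymes and partners of the inhibitors were read from a list of 49 genes, of which 44 were tested in each tissue. In fibroblasts 15 rose and 5 fell between postnatal day 1 and 4 weeks (45.5% called against 15.5% of all genes, median log2 fold change 0.40 against 0.00), and 17 rose and 6 fell between postnatal day 1 and 1.5 years (52.3% against 16.3%, median 0.39 against 0.00). In whole hearts 11 rose and 2 fell over the first interval (29.5% against 18.2%, median 0.15 against -0.09), and 8 rose and 11 fell over the second (43.2% against 31.8%, median -0.16 against -0.15). Between 26 and 31 of the 44 were higher and between 1 and 3 lower in fibroblasts than in hearts, depending on the age (65.9% to 72.7% called, against 32.3% to 38.9% of all genes).

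Among the main targets, Mmp2, a gelatinase, did not pass between postnatal day 1 and 1.5 years in fibroblasts (2049 and 1763 CPM, -0.22 ± 0.19, adjusted p = 0.5). In hearts its mean was 87.9 CPM at postnatal day 1 and 75.2 CPM at 1.5 years. Over the shorter step from postnatal day 1 to 4 weeks Mmp2 rose in hearts by 0.88 ± 0.16 (adjusted p = 0.0011). Its mean in fibroblasts went from 2049 to 2660 CPM over that step. Mmp14, the membrane enzyme that works with TIMP2 on pro-MMP2, fell by 0.82 ± 0.21 in fibroblasts (adjusted p = 0.0204) and by 1.30 ± 0.18 in hearts (adjusted p = 6.5e-05) over the early step in which Timp2 rose in fibroblasts. From 14 weeks to 1 year, when Timp3 fell in fibroblasts and Timp1 rose, Mmp14 rose by 1.50 ± 0.27 (333 to 942 CPM, adjusted p = 0.0144) and Adamts4, an aggrecanase that TIMP3 inhibits, by 3.24 ± 0.42 (28.9 to 273 CPM, adjusted p = 0.0034). Adamts5, the other aggrecanase, was at 730.4 and 737 CPM at these ages (adjusted p = 1).

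The largest rises of the list in fibroblasts between postnatal day 1 and 1.5 years were those of Mmp3, Mmp9 and Mmp27. Mmp3, stromelysin 1, had at most 4 counts in a sample of postnatal day 1 and was 146 and 201 CPM at 1.5 years (adjusted p = 4.3e-08). Mmp9, the other gelatinase, had 0 counts in every sample of postnatal day 1 and 1.33 and 8.23 CPM at 1.5 years (adjusted p = 0.0188), and Mmp27 had 0 counts and then 1.19 and 2.15 CPM (adjusted p = 0.0379). No fold is given for these. The largest falls were those of Adam12 (50.3 to 7.78 CPM, adjusted p = 4.2e-04), Adam33 (14.3 to 2.95 CPM, adjusted p = 0.0103) and Adamts9 (99.5 to 24.2 CPM, adjusted p = 0.0011). In whole hearts Mmp3 (7.51 CPM at 1.5 years, adjusted p = 3.9e-04), Mmp9 (0.340 to 5.62 CPM, adjusted p = 0.0284) and Lrp1 rose most, and Mmp16 (2.28 CPM to at most 1 count in a sample, adjusted p = 0.0013), Adamts9 (28.8 to 7.85 CPM, adjusted p = 3e-05) and Mmp28 (14.0 to 5.12 CPM, adjusted p = 0.0448) fell most.

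Among the other partners, Lrp1, the endocytic receptor that clears TIMPs and MMPs, rose in fibroblasts from 2376 to 10437 CPM between postnatal day 1 and 1.5 years (2.14 ± 0.12 on the log2 scale, adjusted p = 1.4e-07) and in hearts from 55.4 to 174 CPM (1.65 ± 0.22, adjusted p = 3.1e-05). Reck, a membrane-anchored inhibitor of MMPs outside the Timp family, rose in fibroblasts from 88.6 to 152 CPM (0.78 ± 0.17, adjusted p = 0.0069) and in hearts was 9.65 and 9.08 CPM (adjusted p = 0.867). Adam17, the sheddase that TIMP3 inhibits, rose in fibroblasts from 61.1 to 99.6 CPM (adjusted p = 0.012). Cd63, a surface partner of TIMP1, was 181 and 231 CPM in fibroblasts (adjusted p = 0.251) and rose in hearts from 72.9 to 120.1 CPM (adjusted p = 0.0125).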

How the data were processed

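RNA-Seq of 12 cardiac fibroblast and 15 whole heart samples was analyzed. The authors mapped single-end reads to mm10 with STAR 2.5.3a and counted reads per gene with its GeneCounts mode, so the deposited files hold raw counts that were not normalized. The annotation and strand setting are not given in the sources used here. Groups follow the labels for tissue and age, and no sample column was left unused. The methods speak of 3 sets of fibroblasts per age, whereas the labels give 2 at each age from 14 weeks on.

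Each tissue was fitted with edgeR 4.0.16 (R 4.3.3), all samples together and age as the factor, after filterByExpr and TMM scaling, with quasi-likelihood F tests between ages and Benjamini-Hochberg adjustment over every gene tested (threshold 0.05). Tissues, and the difference in change between them, were compared in 1 fit of all 27 samples. Standard errors were obtained as |log2 fold change|/√F. Lengths are the union of exons in GENCODE M21, in which 21760 of 22855 symbols (95.2%) were found. Family shares were compared with an exact permutation test. None of 24 pairs of samples of 1 group held identical counts, and the lowest chi-square per degree of freedom was 28.5. In simulated data with 200 genes changed 4-fold, the test recovered 61.5% of them between postnatal day 1 and 1.5 years in fibroblasts (17916 genes), 70.5% in hearts (17188 genes) and 58.5% between tissues at 1.5 years (20032 genes), with 5.38%, 2.08% and 1.68% of calls false. Depth bounds precision through counting error only.

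Members and gene lists were chosen with earlier results of these data known. Named besides the members are their main targets and partners, the genes they lie in, the 3 largest rises and falls of the 49-gene list past the threshold between postnatal day 1 and 1.5 years per tissue, and the 3 genes most correlated with each member, of which 1 is not reported here. No fold is given against an age whose samples all held 3 counts or fewer. DESeq2 1.42.0, other scalings and filters, only the groups compared, a replicate block and leaving out each sample were the alternatives. Tables and plots were made with python 3.11.15, numpy 2.4.6, pandas 2.3.3 and matplotlib 3.10.9. No protein sequence was used.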

Additional observations from a re-analysis of the deposited data

Results flagged for a closer look

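In 6 cases the change with age of a Timp gene differed between cardiac fibroblasts and whole hearts in the test of that difference (edgeR, log2 scale, change in fibroblasts minus change in hearts). Between postnatal day 1 and 4 weeks these were Timp1 (4.04, from 1.04 in fibroblasts, which did not pass, and -3.01 in hearts), Timp2 (1.19, with 1.60 and 0.40) and Timp3 (1.51, with 1.20 and -0.31). Between postnatal day 1 and 1.5 years they were again Timp1 (3.04, with 2.16 and -0.91), Timp2 (1.48, with 2.01 and 0.51) and Timp3 (2.78, with 2.05 and -0.76). For Timp1 and Timp3 the values in the 2 tissues had opposite signs, of which only those of Timp1 at the early step and Timp3 at the later passed in hearts. Heart replicate 1 of postnatal day 1 had 346 CPM of Timp3 against 164 and 152 CPM in the other 2 samples.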

How the results depend on the processing

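Of the changes reported here, the rises of Timp2 and Timp3 in fibroblasts between postnatal day 1 and 4 weeks and up to 1.5 years, that of Timp1 up to 1.5 years, the early fall of Timp1 in hearts and the 4 family shares kept their direction and their side of the threshold under every alternative run. So did the fall of Timp3 in fibroblasts from 14 weeks to 1 year. Between tissues, Timp2 at every age and Timp1 and Timp3 at every age after postnatal day 1 did too. Called differences in change between the tissues also held, except that of Timp3 at the early step. The tests over 5 ages held for Timp1, Timp2 and Timp3 in fibroblasts and for Timp1 in hearts. Values below are log2 fold changes (for a test over 5 ages, adjusted p values), and the cause of each change was not tested. DESeq2 gained calls in fibroblasts for Timp1 (4 weeks against postnatal day 1, 1.01), Timp2 (1.5 years against 14 weeks, 0.35) and Timp4 (1 year against 14 weeks, -2.95; 1.5 years against postnatal day 1, 2.23; 5 ages, 0.0016), for Timp3 over 5 ages in hearts (0.0384) and for Timp3 between tissues at postnatal day 1 (0.69), and turned the tissue difference of Timp2 in the change after 14 weeks to -0.0285. Scaling by library size alone lost the calls of Timp1 in fibroblasts of 1 year (1.68), of Timp4 in hearts of 1.5 years against postnatal day 1 (0.56) and over 5 ages (0.110), and of Timp4 between tissues at 1 year (-1.89), and gained those of Timp3 in hearts (early step, -0.82; 5 ages, 0.0026). It turned Timp2 in hearts at the early step (-0.10) and up to 1.5 years (-0.0841), Timp1 (-0.12) and Timp4 (-0.18) in hearts between 4 and 14 weeks, Timp4 between tissues at 14 weeks (0.61), and the tissue difference in the early change of Timp4 (0.33) and in the change after 14 weeks of Timp2 (-0.31) and Timp3 (-0.12). With it the median of all genes in hearts moved to -0.60 at the early step and -0.75 up to 1.5 years. Median-of-ratios factors and leaving out mitochondrial genes gained Timp3 between tissues at postnatal day 1 (0.69 and 0.64) and turned the Timp2 tissue difference after 14 weeks (-0.0286 and -0.00303). No filter gained Timp1 (1.04) at the early step and Timp4 over 5 ages (0.0277) in fibroblasts and Timp3 between tissues at postnatal day 1 (0.74), and turned Timp4 between tissues at 14 weeks (0.0218). A minimum of 10 counts gained the same 3 (1.01, 0.0309 and 0.54) and Timp3 over 5 ages in hearts (0.0487), and turned the Timp2 tissue difference after 14 weeks (-0.0461). Fitting only the groups compared gained Timp4 between 14 weeks and 1 year (-2.94 in fibroblasts, -0.66 in hearts) and lost, in hearts, Timp4 at the early step (1.58), Timp1 after 14 weeks (2.02), and Timp3 (-0.74) and Timp4 (1.18) up to 1.5 years, and Timp4 between tissues at postnatal day 1 (-2.07).

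The replicate numbers were not taken to pair the samples, since the labels do not tie a number to an animal. The correlation of deviations was over 0.1 in 0 of 6 pairs across tissues, 2 of 7 in fibroblasts and 1 of 30 in hearts. The 2 in fibroblasts are the same value (0.127), since the deviations of 2 samples from their mean mirror each other. With a replicate block Timp2 in hearts up to 1.5 years (0.51) and the early tissue difference of Timp3 (1.37) lost their calls. In fibroblasts the block could join only the 2 youngest ages or the 3 oldest. Replicate 6 occurred only at 14 weeks, so block comparisons with that age rest on its replicate 4 alone. There Timp4 was at -4.58 (1 year against 14 weeks) and -3.63 (1.5 years against 14 weeks), and Timp1 at 0.95 (1.5 years against 14 weeks).

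Leaving out 1 sample at a time changed a call or a sign for these results, given by their lowest and highest values. In fibroblasts they were Timp1 at the early step (0.72 to 1.33) and from 14 weeks to 1 year (1.52 to 2.14), Timp3 from 4 to 14 weeks (0.91 to 1.19), and Timp4 up to 1.5 years (-0.25 to 3.12) and over 5 ages (0.0134 to 0.201). In hearts they were Timp1 from 4 to 14 weeks (-0.52 to 0.87) and after 14 weeks (1.71 to 2.62), Timp2 up to 1.5 years (0.44 to 0.60), Timp3 at the early step (-0.53 to 0.18), from 4 to 14 weeks (-0.108 to 0.0585), up to 1.5 years (-0.93 to -0.22) and over 5 ages (0.0150 to 0.223), and Timp4 from 4 to 14 weeks (-0.12 to 0.33), up to 1.5 years (0.87 to 1.99) and over 5 ages (3.5e-04 to 0.0935). Between tissues they were Timp3 at postnatal day 1 (0.35 to 1.06) and Timp4 at postnatal day 1 (-2.78 to -1.34), 4 weeks (-2.90 to -1.79), 14 weeks (-0.18 to 0.17), 1 year (-3.41 to -1.63) and 1.5 years (-3.53 to -0.20). For the tissue difference in change they were Timp2 after 14 weeks (-0.12 to 0.16) and Timp4 at the early step (-0.90 to 0.54) and up to 1.5 years (-1.42 to 1.92).

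The number of all genes called moved most for the smallest comparisons. In fibroblasts it was 726 from 4 to 14 weeks (DESeq2, 1541) and 334 from 14 weeks to 1 year (569 to 2004 by the minimum of 10 counts, DESeq2 and only the groups compared). It was 511 from 14 weeks to 1.5 years (808 to 1265 by the same), 2903 at the early step (replicate block, 1770) and 3061 up to 1.5 years (only the groups compared, 2030). In hearts it was 289 from 4 to 14 weeks (library size, 496; DESeq2, 819) and 175 from 14 weeks to 1 year (from 45 with the replicate block and 87 with library size to 1458 with only the groups compared). For the tissue difference in change it was 1475 at the early step (replicate block, 520; DESeq2, 2794) and 559 after 14 weeks (DESeq2, 1414). With 2 or 3 samples a group the spread is known poorly, and Timp1 in hearts rested on as few as 31 counts in a sample.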

Other observations

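The genes whose log2 CPM followed each member most closely differed between the tissues. Over the 12 fibroblast samples Timp2 was closest to Cd9 (r = 0.992), Kremen1 (0.991) and Itih2 (0.991), Timp3 to Tom1l1 (0.949), Necab1 (0.941) and Dlg1 (0.934), Timp1 was close to Tmem159 (0.934) and Serpina3n (0.934), and Timp4 was closest to Cyyr1 (0.930), Arhgap27 (0.925) and Orc3 (0.921). Over the 15 whole heart samples the closest genes were 1110038B12Rik (0.895), H3f3b (0.894) and Gpr182 (0.881) for Timp1, Smpdl3b (0.841), Hscb (0.808) and 1190007I07Rik (0.807) for Timp2, Fam107a (0.813), Fam214a (0.810) and Hlf (0.805) for Timp3, and Adgrg1 (0.921), Pnpla2 (0.919) and Fbxo31 (0.907) for Timp4. Among the members, Timp2 went with Timp1 (0.781) and Timp3 (0.770) in fibroblasts, and Timp1 ran against Timp4 in hearts (-0.656). These values describe samples that share 5 ages and their libraries, and were picked from the highest of 13315 genes in fibroblasts and 13235 in hearts.

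The synapsin genes around the Timp genes had low counts. Syn3, whose exons overlap those of Timp3, had means of 2.90, 8.34, 19.2, 3.23 and 11.8 CPM from the youngest to the oldest fibroblasts, beside 416, 957, 1989, 729 and 1717 CPM of Timp3, so that Syn3 moved in the same order as Timp3 at a small fraction of its level. It rose by 2.03 ± 0.50 between postnatal day 1 and 1.5 years (edgeR, adjusted p = 0.0131) and fell by 2.57 ± 0.58 between 14 weeks and 1 year (adjusted p = 0.0449). Without strand information it is not known how reads in the stretch it shares with Timp3 were counted. Syn1 (1.52 and 3.70 CPM), Syn2 (0.445 and 9.85 CPM) and Cep295nl (0.764 and 3.27 CPM) did not pass in fibroblasts between postnatal day 1 and 1.5 years (adjusted p from 0.081 to 0.384).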
